A study of Mus musculus with 8 samples.

Results

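Sphincter 2 is the smaller of the 2 groups of sphincter muscle nuclei that the authors' clustering separates in the mouse iris, and it was compared here with dilator muscle, gene by gene, in the untreated irises. The nuclei were taken by their deposited cell type, which gave 352 sphincter 2 and 4357 dilator nuclei of 14365 nuclei in the 3 untreated libraries and of 34357 nuclei in all 8 libraries. The question was which transcripts of dilator muscle sphincter 2 also carries and which it lacks. Of 41 transcripts that set dilator muscle apart from sphincter 1, sphincter 2 had at least 50% of the dilator level in every library for 21, among them *Kcnip4*, *Unc13c* and *Otx2os1*. It had less than 20% of the dilator level of the GABA receptor transcript *Gabra5*, of *Nos1* and of the melanin transcripts *Tyr*, *Pmel* and *Dct*, and many times the dilator level of *Chrm3*, *Syt1*, *Myocd* and *Kcnmb1*.

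The iris holds a pair of opposed smooth muscles. The sphincter, a ring at the pupil margin, narrows the pupil when parasympathetic nerves release acetylcholine onto muscarinic receptors, and the dilator, a thin radial sheet at the back of the iris, widens it when sympathetic nerves release noradrenaline onto alpha-1 adrenergic receptors. Unlike most smooth muscle, both are generally described as arising from the neuroepithelium of the optic cup. The same origin is described for the pigmented epithelium of the iris (iris PE). From lineage tracing, the study instead proposes that neural crest cells supply most progenitors of iris PE, dilator muscle and the smaller sphincter group. It proposes that these cells contribute little to the larger sphincter group. Origin was not tested here.

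All mice were wild-type female albino adults, and each library was made from nuclei of several pooled irises, with some ciliary body attached, so that no value belongs to a single animal. The untreated mice received no eye drops. The 3 constricted libraries, used to choose the transcripts and to repeat the comparison, came from mice given hourly pilocarpine, a muscarinic agonist, in the light, and the 2 dilated libraries from mice given phenylephrine and cyclopentolate in the dark. Drug and lighting cannot be told apart between these conditions. The measurement is a count of unique molecular identifiers (UMIs), 1 for each captured RNA molecule, in nuclear RNA.

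Sphincter 2 contributed 26, 136 and 190 nuclei in untreated replicates 1, 2 and 3, with 109148, 480546 and 674523 UMIs, and dilator muscle 403, 2080 and 1874 nuclei, with 1604121, 7105128 and 6321621 UMIs. Median UMIs per nucleus were alike, at 3334 to 4523.5 in sphincter 2 and 3344.5 to 3926 in dilator muscle. In untreated replicate 1, 63 barcodes were shared with dilated replicate 1, or 4.26% of its nuclei, against at most 0.947% for any other pair that includes an untreated library. No sphincter 2 nucleus and 34 of the dilator nuclei had a barcode of another library, and without these nuclei the counts below moved by less than 1.5 times. Scrublet called 14 sphincter 2 nuclei (3.98%), 19 dilator nuclei (0.436%) and 49 sphincter 1 nuclei (9.01%) doublets. The smooth muscle label held in both groups, with *Myh11*, the smooth muscle myosin heavy chain, at 2492 to 3171 CPM (UMIs of the gene relative to all UMIs of that type and library) in sphincter 2. Dilator muscle had 1681 to 2090 CPM of it and iris PE 78.0 CPM.

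Markers of other cell types were checked as summed CPM over each marker list. The 8 sphincter 1 markers summed to 801 to 1118 CPM in sphincter 2, 139 to 185 CPM in dilator muscle and 6778 to 7752 CPM in sphincter 1, and among them *Ttn*, the giant sarcomeric protein titin, stood at 8.39 CPM in sphincter 2, 9.51 CPM in dilator muscle and 1683 CPM in sphincter 1. The 8 markers of stroma 2 summed to 541 to 1090 CPM in sphincter 2 against 291 to 369 CPM in dilator muscle, and *Dkk2* alone had 534 CPM on average in sphincter 2. For the ciliary body the order was the other way, with 568 to 693 CPM in sphincter 2, whereas dilator muscle had 1135 to 1414 CPM. Markers of leukocytes and endothelium summed to between 25.0 and 128 CPM in each library of both types. The 7 markers of stroma 1 that were measured summed to 109.9 to 138 CPM in sphincter 2, 188 to 233 CPM in dilator muscle and 7690 to 8862 CPM in stroma 1 itself. Those of iris PE summed to 268 to 354 CPM in sphincter 2, 204 to 254 CPM in dilator muscle and 5945 to 6294 CPM in iris PE. The part of any of these markers in the results was not tested.

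For each library, the UMIs of all nuclei of a type were added up, and sphincter 2 and dilator muscle of the same library were fitted as a pair with edgeR's quasi-likelihood method. Because the cell types were assigned from these same counts, the fit describes how steady a difference is over 3 libraries and does not test whether the populations differ, and no p-value of a single gene is printed. A gene counts as past the cut at a log2 fold change above 1 or below -1 with a Benjamini-Hochberg adjusted p under 0.05. Of 10850 genes fitted, 527 (4.86%) were past the cut and higher in sphincter 2, and 488 (4.5%) were past the cut and higher in dilator muscle. These shares are the background for the counts of list members past the cut given below. With so many fewer nuclei in sphincter 2, a transcript below about 10 CPM rested there on a few UMIs.

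The transcripts of dilator muscle were chosen in the constricted libraries, from the levels in dilator muscle, sphincter 1, iris PE and both stromal types. Levels in sphincter 2, ciliary body, leukocytes and endothelium were not used. A transcript was kept with a mean of at least 50 CPM in dilator muscle and at least 4 times the level of iris PE and of both stromal types, which gave 80 transcripts. Sphincter 1 split them into 41 dilator-restricted transcripts, at least 4 times as high in dilator muscle as in sphincter 1, 25 shared transcripts, less than 2 times as high, and 14 between. They were then read in the untreated libraries. A transcript was called carried where sphincter 2 had at least 50% of the dilator CPM in every library, lacking where its mean was at most 10%, and reduced otherwise.

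Of the 41 dilator-restricted transcripts, sphincter 2 carried 21, had 18 at a reduced level and lacked 2, *Gabra5* and *Cacng4*. The median transcript of this set was at 56.9% of its dilator level, with quartiles at 30.1% and 79.2% and a range from 7.51% to 858%. The sphincter 2 mean lay between those of sphincter 1 and dilator muscle for 34 of the 41, above both for 5 and below both for 2. In the fit, 16 of them were past the cut and higher in dilator muscle, and 1, *Wif1*, higher in sphincter 2. Their choice for a high dilator level favours the dilator side. The gap to sphincter 1 that it demanded, at least 4 times, also favours a mean between the 2 types. Near the limit for carried transcripts, *Slc38a11* had a lowest library value of 51.9% and *Reln* one of 49.4%, and above the limit for lacking transcripts *Nos1* had 13.96%.

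**Figure D1:**
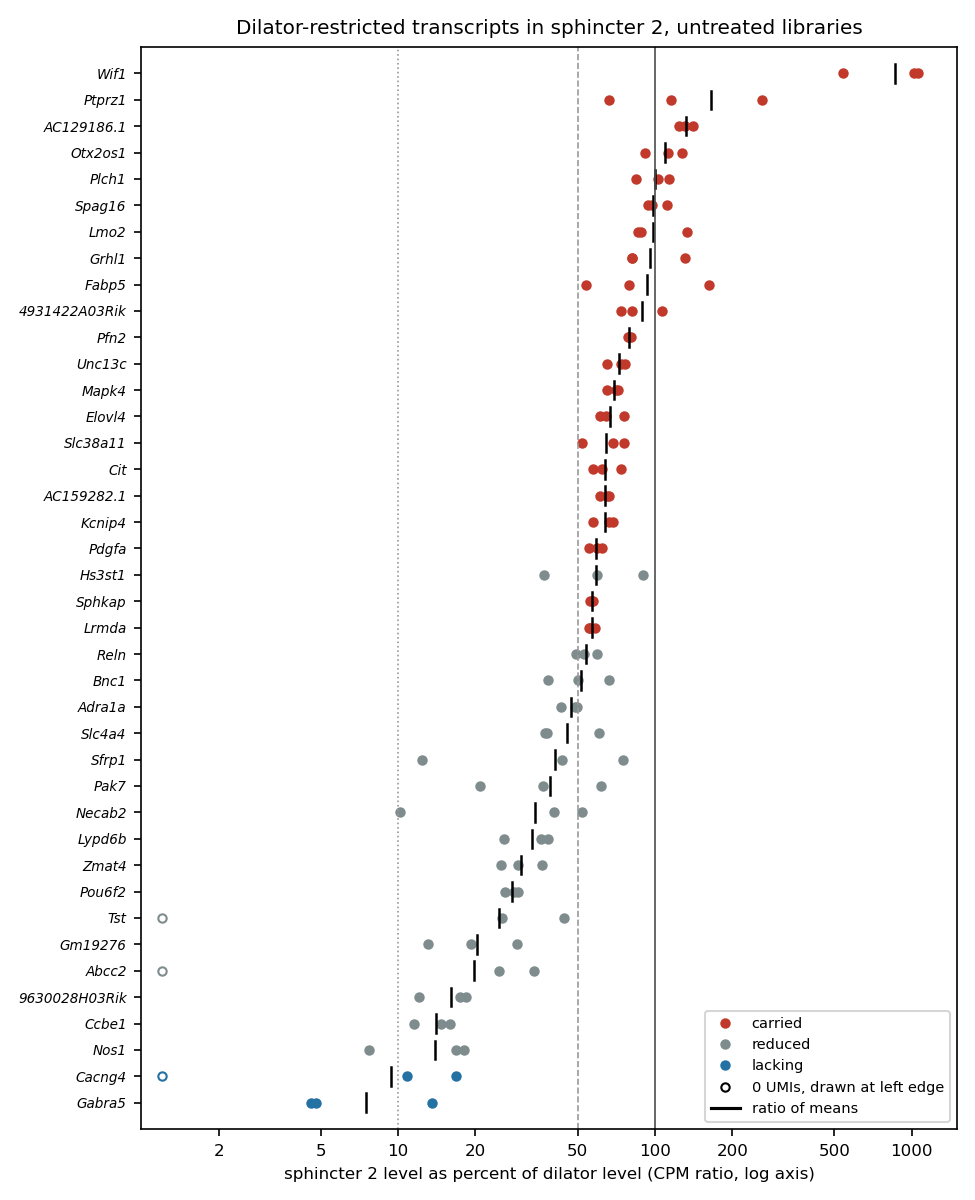
Level of 40 of the 41 dilator-restricted transcripts in sphincter 2, as percent of the dilator level of the same library on a log axis. Each point is 1 untreated library, black bars are the ratio of the means, colours give the class, dashed and dotted lines mark 50% and 10%, and open points are libraries with 0 UMIs. The transcripts spread from *Gabra5* at 7.51% to *Wif1* at 858% rather than lining up at one percentage.

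The 4 most abundant dilator-restricted transcripts in dilator muscle, *Kcnip4*, *Unc13c*, *Lrmda* and *AC129186.1*, were carried. *Kcnip4*, which encodes a potassium channel-interacting protein, was at 3289, 3203 and 3259 CPM in sphincter 2, whereas dilator muscle had 5715, 4856 and 4744 CPM and sphincter 1 averaged 773 CPM. Sphincter 2 thus held 63.7% of the dilator level, with no overlap between the types (log2 fold change -0.65, SE 0.09). *Unc13c*, which encodes a priming factor for vesicle release, was at 1292, 1763 and 1776 CPM in sphincter 2, against 1981, 2299 and 2398 CPM in dilator muscle, which is 72.3% of the dilator level. For *Otx2os1*, the long noncoding RNA that lies across *Otx2* on the other strand, the types overlapped, with 733, 722 and 827 CPM in sphincter 2, whereas dilator muscle had 800, 642 and 652 CPM and sphincter 1 averaged 174 CPM. *Otx2* itself, a transcription factor of the eye field and of pigmented epithelium that fell in the class between, was at 321, 441 and 424 CPM against 332, 338 and 347 CPM, again overlapping.

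*Lmo2*, which encodes a LIM domain transcription cofactor, and *Plch1*, which encodes a phospholipase C, had overlapping libraries in the 2 types, with log2 fold changes of -0.13 (SE 0.11) and -0.01 (SE 0.10). The unnamed gene *AC129186.1* exceeded the dilator level in every library, at 1145, 1267 and 1362 CPM against 920, 968 and 965 CPM, while sphincter 1 had 70.2 CPM. *Pdgfa*, a platelet-derived growth factor ligand, was at 59.0%, *Lrmda* at 56.7%, *Cit* at 64.0%, *Mapk4* at 69.1%, *AC159282.1* at 63.9% and *Sphkap*, an anchor for protein kinase A, at 56.9% of the dilator level, each below dilator muscle in all 3 libraries. *Ptprz1*, a receptor-type tyrosine phosphatase, varied widely between libraries, with 733, 196 and 125 CPM against 282, 169 and 187 CPM, and without untreated replicate 1 its log2 fold change turned from 0.21 to -0.21.

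At the other end stood *Gabra5*, the gene of a subunit of the GABA-A receptor, the chloride channel opened by the inhibitory transmitter GABA. It (mm10 chr7:57407672-57510059, minus strand) was at 9.16, 20.8 and 5.93 CPM in sphincter 2, from 15 UMIs in all, and at 200.1, 154 and 124 CPM in dilator muscle. The types did not overlap, the log2 fold change was -3.58 (SE 0.26), and sphincter 1 averaged 9.85 CPM. Whether the counting used strand is not given in the sources used here, so that part of its reads could come from the other strand.

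*Nos1* (chr5:117781032-117958840, plus strand), the neuronal nitric oxide synthase, was at 36.6, 45.8 and 20.8 CPM in sphincter 2, whereas dilator muscle had 218, 253 and 268 CPM and sphincter 1 averaged 13.1 CPM. Sphincter 2 had 13.96% of the dilator level, a log2 fold change of -3.01 (SE 0.19). *Cacng4*, which encodes an auxiliary subunit of AMPA receptors and calcium channels, was at 0, 22.9 and 11.9 CPM in sphincter 2 against 123, 136 and 110 CPM, and was called lacking only with untreated replicate 1 included, where sphincter 2 had no UMI of it. *Cacng4* was also 1 of the 8 ciliary body markers. *Slc4a4*, a sodium bicarbonate cotransporter, and *Reln*, the secreted glycoprotein reelin, were intermediate at 45.4% and 53.7%.

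The transcripts that dilator muscle shares with sphincter 1 were nearly all present in sphincter 2. It carried 24 of these 25, at a median of 200.5% of the dilator level. In the fit 13 of the 25 were past the cut and higher in sphincter 2, beside 4.86% of all genes. *Carmn*, a noncoding RNA of smooth muscle, and *Dgki*, a diacylglycerol kinase, were among these 13, with log2 fold changes of 1.19 and 1.25. The class had no upper limit on sphincter 1. It holds transcripts higher there than in dilator muscle, such as *Carmn* (3012 against 1036 CPM) and *Synpo2* (2331 against 473 CPM), and others lower there, such as *Chrm2* (315 against 630 CPM). A level above dilator muscle was thus in part favoured by the choice. Of the 14 transcripts between, sphincter 2 carried 12.

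The receptors for the drugs and nerves of the pupil followed the split between the muscles only in part. *Adra1a* (chr14:66635251-66771168, plus strand), the alpha-1A adrenergic receptor, was at 247, 196 and 234 CPM in sphincter 2, whereas dilator muscle had 507, 456 and 473 CPM and sphincter 1 averaged 22.3 CPM. The libraries did not overlap, and sphincter 2 kept 47.2% of the dilator level (log2 fold change -1.10, SE 0.11), just past the cut and short of it, at -0.96, when the dilator sums were thinned to the sphincter 2 total. *Adra1b*, a second alpha-1 receptor, was at 0, 6.24 and 13.3 CPM, from 12 UMIs, against 26.2, 29.1 and 30.1 CPM in dilator muscle, and stroma 2 had 236 CPM of it. *Chrm2*, the muscarinic M2 receptor, was the one shared transcript that sphincter 2 did not carry, at 211, 194 and 181 CPM against 675, 579 and 635 CPM (log2 fold change -1.70, SE 0.11), and its level in sphincter 1, 315 CPM, lay between them.

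*Chrm3* (chr13:9875486-10360847, minus strand), the muscarinic M3 receptor that drives sphincter contraction, had the opposite order. It was at 660, 543 and 792 CPM in sphincter 2 against 23.7, 18.0 and 25.3 CPM, with no overlap (log2 fold change 4.92, SE 0.11), and at 3958 CPM in sphincter 1. All 4 receptor genes of the adrenergic and muscarinic list that could be fitted, of 14 listed, were past the cut, 1 higher in sphincter 2 and 3 higher in dilator muscle. The others could not be fitted.

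**Figure D2:**
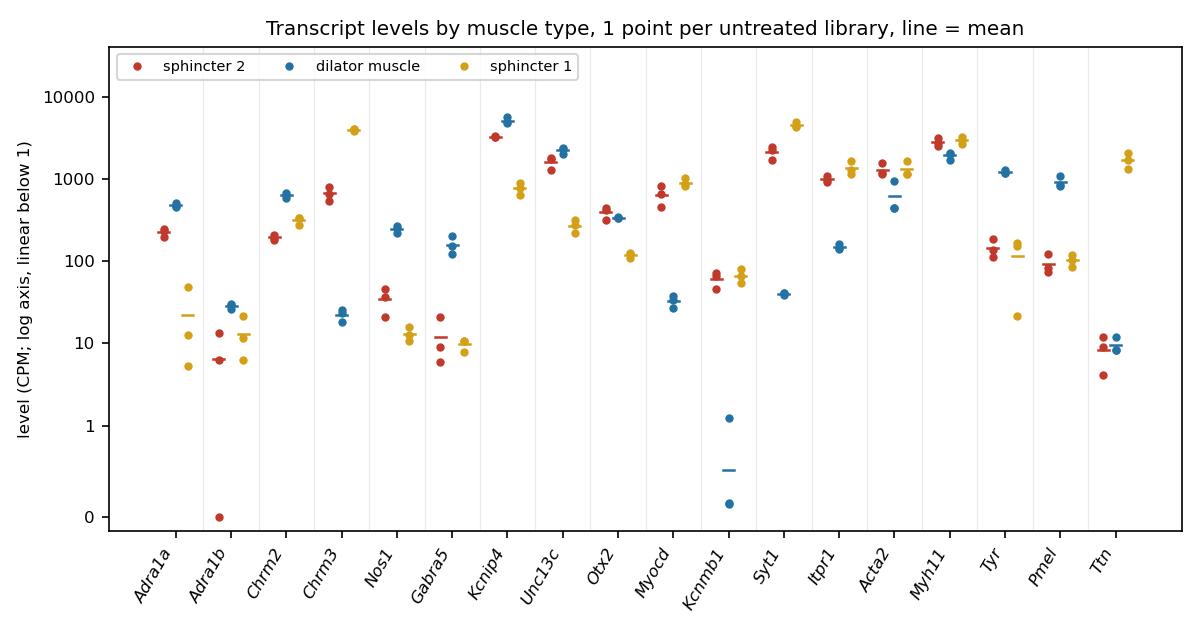
Levels in CPM (log axis, linear below 1) of 18 transcripts in sphincter 2, dilator muscle and sphincter 1. Each point is 1 untreated library and each short line the mean of 3 libraries. Sphincter 2 points lie with dilator muscle for *Otx2*, with sphincter 1 for *Kcnmb1* and *Pmel*, and between the other muscles for *Adra1a* and *Chrm3*.

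Among 30 fitted genes of neuronal and vesicle release function, 9 were higher in sphincter 2 and 2 higher in dilator muscle, beside 4.86% and 4.5% of all genes. The list median was -0.14 on the log2 scale, so that the list as a whole did not lean to sphincter 2. *Syt1*, the calcium sensor of fast vesicle release, was at 1713, 2212 and 2412 CPM in sphincter 2, whereas dilator muscle had 41.1, 38.4 and 40.97 CPM (log2 fold change 5.78, SE 0.11) and sphincter 1 averaged 4497 CPM. *Nptx2*, a secreted pentraxin of synapses, rested on 37 UMIs in sphincter 2, at 55.0, 37.5 and 19.3 CPM against 0.565 CPM on average in dilator muscle. *Negr1*, a neural adhesion molecule, averaged 996 CPM against 151 CPM, and *Sh3gl2*, an endophilin of vesicle recycling, 408 CPM against 93.7 CPM. The pair higher in dilator muscle were *Cadps*, with 301 CPM against 82.1 CPM in sphincter 2, and *Sv2a*, with 118 CPM against 46.5 CPM, and both were also found in sphincter 1, at 132 and 68.2 CPM.

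The contractile genes were higher in sphincter 2 wherever they passed the cut. Of 27 fitted, 14 were higher in sphincter 2 and none in dilator muscle, and the list median was 1.21 on the log2 scale, against 0.0027 for all genes. *Acta2*, smooth muscle actin, was at 1567, 1174 and 1140 CPM in sphincter 2, against 954, 446 and 438 CPM in dilator muscle, with no overlap and with untreated replicate 1 the highest library in each type (log2 fold change 1.21, SE 0.10). *Actg2*, enteric smooth muscle actin, was at 73.3, 49.9 and 26.7 CPM against 3.74, 0.844 and 1.27 CPM, and *Cnn1*, calponin, at 91.6, 139 and 120.1 CPM against 9.97, 7.74 and 8.23 CPM. *Csrp2*, a LIM protein of muscle, averaged 246 CPM against 31.9 CPM, and *Des*, desmin, 31.2 CPM against 4.49 CPM. *Myh11* was higher in sphincter 2 in every library but below the cut (log2 fold change 0.52, SE 0.09), and *Smtn* and *Mylk*, for smoothelin and myosin light chain kinase, had log2 fold changes of -0.93 and -0.60, also below the cut.

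Regulators of the muscle programme went the same way, with 7 of 20 fitted genes higher in sphincter 2, beside 4.86% of all genes, and none higher in dilator muscle. *Myocd*, the coactivator that switches on smooth muscle genes, was at 449, 649 and 815 CPM against 33.7, 27.0 and 38.3 CPM (log2 fold change 4.39, SE 0.12), and sphincter 2 had 71.2% of the sphincter 1 level. *Lmo4*, another LIM cofactor, was at 1008, 968 and 978 CPM against 117, 132 and 147 CPM and exceeded its mean in sphincter 1, 664 CPM. *Rbfox3*, a neuronal splicing factor, averaged 151 CPM against 8.63 CPM, and *Tbx20*, a T-box factor, 43.3 CPM against 7.79 CPM. Iris PE had 159 CPM of *Rbfox3*, and *Tbx20* was also 1 of the 8 iris PE markers. *Srf*, the partner of myocardin, averaged 16.1 CPM against 12.8 CPM and was not past the cut.

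Genes that move calcium and potassium showed the same lean. Of 27 fitted calcium genes, 7 were higher in sphincter 2 and none higher in dilator muscle, beside 4.86% and 4.5% of all genes. *Itpr1*, the store channel opened by inositol trisphosphate, was at 1081, 959 and 918 CPM in sphincter 2 against 162, 144 and 139 CPM (log2 fold change 2.73, SE 0.09), and the ryanodine receptor *Ryr3* was at 980, 936 and 796 CPM against 293, 241 and 244 CPM. Of 17 fitted potassium channel genes, 7 were higher in sphincter 2 and 1 higher in dilator muscle. *Kcnmb1* (chr11:33963013-33973641, plus strand), the smooth muscle subunit of the large-conductance calcium-activated channel, was at 45.8, 66.6 and 71.2 CPM in sphincter 2 and had only 4 UMIs in all dilator nuclei, and its log2 fold change of 7.72 (SE 0.43) was the highest among the genes past the cut with at least 50 CPM in sphincter 2 or dilator muscle and one sign in all 3 libraries. The pore gene *Kcnma1* was at 82.5, 97.8 and 91.9 CPM against 9.35, 7.60 and 7.12 CPM, and at 1091 CPM in sphincter 1, so that sphincter 2 had 91.7% of the sphincter 1 level of the subunit and 8.31% of that of the pore. *Kcnmb1* lies inside *Kcnip1* on the other strand, and *Kcnip1*, which was at 45.8, 49.9 and 57.8 CPM against 6.86, 2.39 and 2.53 CPM, may share reads with it.

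In the list of myosin phosphatase and related genes, 5 of 17 fitted were higher in sphincter 2, among them the phosphatase subunits *Ppp1r12a* (1374 CPM against 433 CPM) and *Ppp1cb* (308 CPM against 112 CPM) and the GTPase-activating gene *Arhgap6* (493 CPM against 118 CPM). The phosphatase inhibitor *Ppp1r14c* was higher in dilator muscle, at 45.0 CPM against 9.49 CPM. Of 25 fitted genes of nitric oxide, cGMP and cAMP signalling, 5 were higher in sphincter 2 and 4 higher in dilator muscle, beside 4.86% and 4.5% of all genes. The first group included *Adcy5*, an adenylate cyclase, at 58.4 CPM against 3.56 CPM, *Pde3b*, a phosphodiesterase, at 49.5 CPM against 10.1 CPM, and *Prkg1*, the cGMP-dependent kinase, at 359 CPM against 130 CPM. The second group was *Nos1*, *Gucy1a2*, *Adcy2* and *Pde7b*, with log2 fold changes from -3.01 to -1.25.

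Among 24 fitted G protein, phospholipase C and RGS genes, *Plcb1* was at 128, 146 and 169 CPM in sphincter 2 against 668, 626 and 628 CPM (log2 fold change -2.03, SE 0.12), whereas *Plcb4*, the abundant phospholipase C of iris muscle, was at 3848, 4549 and 4809 CPM against 2946, 3560 and 3602 CPM and not past the cut. *Plcl2*, a catalytically inactive relative, was higher in sphincter 2 at 83.5 CPM against 16.0 CPM, and *Rgs7*, at 21.0 CPM against 7.94 CPM, also passed the cut. *Rgs6* was called higher in dilator muscle although the types overlapped, and it lost the call under 4 of the alternatives tried. The dilator-restricted RNA *9630028H03Rik*, chosen here after its values had been seen, is annotated antisense to *Plcb1* and stood at 16.1% of its dilator level.

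**Figure D3:**
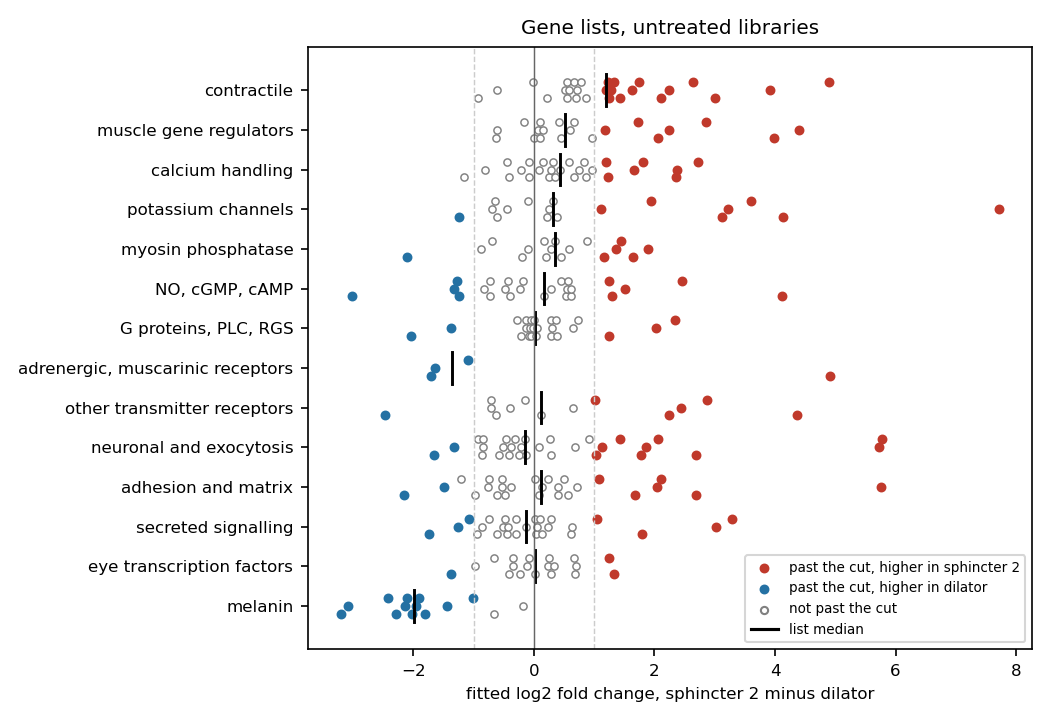
Fitted log2 fold change (sphincter 2 minus dilator muscle) of each fitted member of 14 gene lists in the untreated libraries. Filled points passed the cut, open points did not, and black bars are list medians. The contractile list has 14 of 27 members past the cut on the sphincter 2 side and the melanin list 12 of 14 on the dilator side.

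Transcripts of pigment production were lower in sphincter 2 as a group. The dilator is generally described as forming from the anterior pigmented layer of the iris, which holds melanin in pigmented mice. Albino mice make no melanin, but the genes were transcribed. Of 14 melanin genes fitted, none was higher in sphincter 2 and 12 were higher in dilator muscle, with a list median of -1.99 on the log2 scale. *Tyr* (chr7:87424771-87493512, minus strand), tyrosinase, was at 137, 187 and 113 CPM in sphincter 2, whereas dilator muscle had 1170, 1189 and 1284 CPM (log2 fold change -3.09, SE 0.13) and sphincter 1 averaged 114 CPM. *Pmel*, the scaffold protein of the pigment granule, was at 82.5, 121 and 74.1 CPM against 1082, 823 and 836 CPM (log2 fold change -3.20, SE 0.14). *Dct*, dopachrome tautomerase, was at 815, 1170 and 872 CPM against 5591, 5031 and 5038 CPM, and *Gpr143*, a receptor of pigment granules, averaged 13.4 CPM against 52.2 CPM. The 2 not past the cut were *Mitf*, the transcription factor of pigment cells, at 642 CPM against 1038 CPM, and *Rab38*, at 177 CPM against 181 CPM. Levels were higher again in stroma 1, with 2477 CPM of *Tyr* and 2723 CPM of *Pmel*. The summed markers of stroma 1 were lower in sphincter 2 as well, at 109.9 to 138 CPM against 188 to 233 CPM, and whether free RNA from those cells added to the values in either muscle was not tested.

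The promoters of the melanin genes were read for the M-box, the sequence TCATGTG bound by MITF, which contains the E-box CATGTG. The M-box was chosen as the site of a pigment cell factor, so that finding it in melanin genes was likely beforehand. Whether it bears on the difference between the types was not tested. It was searched on both strands in the window from 250 bases before to 50 bases after each RefSeq gene start of GRCm38.p6. It was found for 5 of the 8 melanin genes that were higher in dilator muscle and had a window (*Tyr*, *Tyrp1*, *Dct*, *Slc24a5* and *Trpm1*). By comparison it was found for 8.67% of the 346 genes with a window that were higher in dilator muscle, these 8 among them. The share was 2.3% of the 391 higher in sphincter 2, 2.66% of the 8271 fitted and 4.31% of all 27025 genes with a window. The 250 bases before the start of 3 of them, with the M-box in capitals on whichever strand it lies, show where it sits, 22 bases before the start in *Tyr* (chr7:87493513-87493762, minus strand), 47 bases before it in *Tyrp1* (chr4:80833963-80834212, plus strand) and at 2 places in *Dct* (chr14:118052247-118052496, minus strand), 151 bases before the start on the gene's strand and 232 bases before it on the other.
Tyr: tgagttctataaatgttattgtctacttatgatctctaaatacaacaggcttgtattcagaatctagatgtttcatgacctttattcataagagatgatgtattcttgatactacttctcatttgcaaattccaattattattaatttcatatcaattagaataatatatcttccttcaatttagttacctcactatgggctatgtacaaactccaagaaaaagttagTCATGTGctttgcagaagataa
Tyrp1: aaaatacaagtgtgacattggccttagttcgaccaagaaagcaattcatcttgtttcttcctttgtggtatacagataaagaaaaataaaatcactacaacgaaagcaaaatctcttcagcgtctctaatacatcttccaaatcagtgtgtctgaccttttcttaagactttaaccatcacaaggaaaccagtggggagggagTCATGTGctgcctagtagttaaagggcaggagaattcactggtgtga
Dct: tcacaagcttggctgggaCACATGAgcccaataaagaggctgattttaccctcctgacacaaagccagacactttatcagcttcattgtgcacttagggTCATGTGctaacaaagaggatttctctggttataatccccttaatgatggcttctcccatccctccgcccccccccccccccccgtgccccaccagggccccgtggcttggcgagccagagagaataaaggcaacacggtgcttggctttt
The CArG box, the site of SRF, was searched in the same window as the exact string CCWWWWWWGG, where W is A or T. It was found for 3.58% of the genes higher in sphincter 2, 0.867% of those higher in dilator muscle and 1.61% of the genes fitted. Of the contractile genes with a window, 0 of the 11 higher in sphincter 2 and 5 of all 22 had it. Variants of the string and sites outside the window were not counted, so that these promoters may still hold an SRF site. The OTX sequence TAATCC, searched in the same way and not part of the M-box, was found for 8.7%, 9.54% and 7.11%. A match is a string of letters and does not show that a factor binds.

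Outside these groups, the 10 transcripts with the lowest log2 fold change past the cut included *Npsr1*, the neuropeptide S receptor, at 73.3, 279 and 168 CPM in sphincter 2 against 1587, 1817 and 1710 CPM, and at 1958 CPM in iris PE. The long noncoding RNAs *Gm12153*, *Gm48606* and *Gm40932* and the genes *Slc9b2*, *Phgdh* (the first enzyme of serine synthesis) and *Alpl* (alkaline phosphatase) were also among them, with *Gabra5* and *Pmel*, and the noncoding RNAs, *Slc9b2*, *Phgdh* and *Alpl* each had at most 12 UMIs in sphincter 2. *Gm12153* lies 57879 bases from *Adra1b*, its nearest protein-coding gene. On the other side, *Entpd1*, an ectonucleotidase, was at 101, 152 and 157 CPM in sphincter 2 against 2.27 CPM on average, *Itga1*, an integrin that binds collagen, at 64.1, 70.8 and 66.7 CPM against 1.37 CPM, and *Mical2*, an oxidase of actin filaments, at 192, 154 and 144 CPM against 6.43 CPM. *Fam212b*, *Casz1* and *Ccdc69* were between 52.3 and 68.1 CPM in sphincter 2 and below 4 CPM in dilator muscle. All of these were also present in sphincter 1, at 70.2 to 484 CPM.

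The transcripts that set sphincter 1 apart were read in the same way. In the constricted libraries 139 transcripts had a mean of at least 50 CPM in sphincter 1 and were at least 4 times as high in sphincter 1 as in dilator muscle, iris PE and both stromal types. Sphincter 2 carried 21 of them, had 78 reduced and lacked 40, with a median of 25.2% of the sphincter 1 level. Among those carried were *Itpr1* (72.4%), *Mical2* (79.0%) and *Kcnmb1* (91.7%). Among those lacking were *Ttn*, *Ctnna3*, an alpha-catenin of muscle junctions, at 2.96% of the sphincter 1 level, and *Kcnma1*. *Ttn* and *Ctnna3* did not differ past the cut between sphincter 2 and dilator muscle, with log2 fold changes of -0.02 (SE 0.49) and 0.14 (SE 0.26), and *Ckm*, the muscle creatine kinase, had 5 UMIs in sphincter 2 and was too low to be fitted. Of the 106 sphincter transcripts that could be fitted, 80 were past the cut and higher in sphincter 2 than in dilator muscle, and none was past the cut in the other direction. These transcripts had been chosen for a dilator level far below that of sphincter 1. The absence of calls on the dilator side was thus nearly set by the choice. Of all genes fitted, 4.86% were past the cut on the sphincter 2 side and 4.5% on the dilator side.

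Some transcripts were higher in sphincter 2 than in both other muscle types. There were 18 with at least 2 times the level of dilator muscle and of sphincter 1 in every untreated library and a mean of at least 50 CPM. They were picked on the same untreated values that are given here. In the constricted libraries the mean was below 2 times the higher of the other muscles for *Cdh20* (1.96), *Mtmr10* (1.66), *Gm5784* (1.61), *Fut9* (1.37) and *Gm12295* (1.12). For the others it was at least 2.35 times. *Dkk2*, a secreted inhibitor of Wnt signalling, was at 825, 337 and 440.3 CPM in sphincter 2 against 50.5, 43.3 and 46.3 CPM in dilator muscle, on average 11.4 times the higher of the other muscles. It is 1 of the stroma 2 markers, with 1274 CPM there. *Wif1* (chr10:121033960-121100650, plus strand), another secreted Wnt inhibitor, was at 541, 325 and 559 CPM against 53.0, 60.2 and 52.8 CPM in dilator muscle, and at 20.0 CPM in sphincter 1 and 3.82 CPM in stroma 2. *Fn1*, fibronectin, was at 458, 285 and 298 CPM against 49.9, 39.8 and 44.5 CPM, and *Alcam*, a cell adhesion molecule, at 705, 383 and 568 CPM against 71.7, 85.0 and 88.6 CPM. *Hhip*, a membrane antagonist of hedgehog ligands, was at 889, 866 and 1173 CPM against 244, 275 and 315 CPM. *Ptch1*, the hedgehog receptor, was past the cut in the same direction by its fitted value only. Its mean levels, 21.8 CPM against 12.05 CPM, were low and less than 2 times apart. The collagen genes *Col11a1* and *Col25a1*, the cadherin *Cdh20* and the cystine transporter *Slc7a11* were at 3.88, 3.64, 3.37 and 2.98 times the higher of the other muscles, and iris PE had 166 CPM of *Slc7a11* against 208 CPM in sphincter 2. The noncoding *4933406I18Rik*, at 5.50 times in untreated and 2.36 times in constricted libraries, begins 120 bases from *Pde3b*, which was also past the cut.

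**Figure D4:**
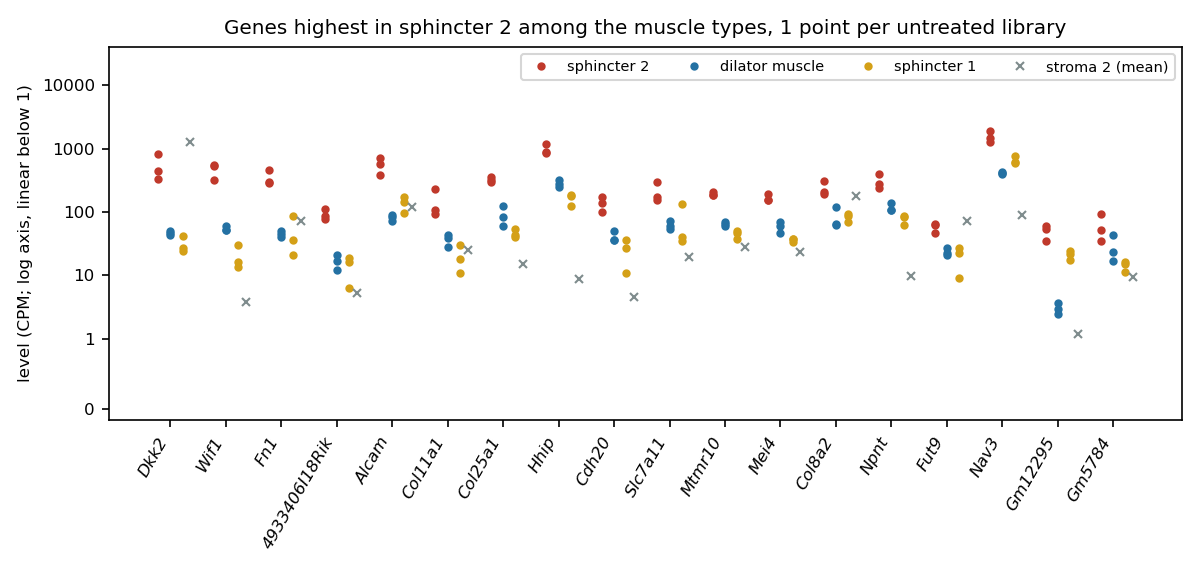
Levels in CPM (log axis, linear below 1) of the 18 genes highest in sphincter 2 among the muscle types, ordered by their ratio to the higher of the other muscles. Points are single untreated libraries and crosses are the stroma 2 mean of 3 libraries. In each library the sphincter 2 level is at least 2 times that of both other muscles, although across libraries *Gm5784* overlaps with dilator muscle, and for *Dkk2* and *Fut9* the stroma 2 mean lies above the sphincter 2 mean.

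Secreted factors and matrix genes passed the cut in both directions, and their counts stand beside 4.86% of all genes on the sphincter 2 side and 4.5% on the dilator side. Of 27 fitted genes of secreted signalling, 4 were higher in sphincter 2 (*Dkk2*, *Wif1*, *Hhip* and *Ptch1*) and 3 higher in dilator muscle, where *Gfra1*, a receptor for GDNF, was at 315, 373 and 370.0 CPM against 119, 114 and 104 CPM. Of 26 fitted adhesion and matrix genes, 6 were higher in sphincter 2, led by *Itga1* and *Pcdh7*, a protocadherin at 4837, 3854 and 3887 CPM against 878, 550.3 and 563 CPM, and 2 higher in dilator muscle, *Lamb1*, a laminin chain, at 154 CPM against 31.9 CPM, and *Tnr*. In the list of other transmitter receptors, 5 of 13 fitted were higher in sphincter 2, among them *Htr1b* (25.0 CPM against 0.759 CPM), *Ednra*, the endothelin A receptor (47.4 CPM against 4.52 CPM), and *Calcrl* (45.4 CPM against 5.46 CPM). *Htr1b*, *Ednra* and *Calcrl* each rested on 40 UMIs or fewer in sphincter 2 and were highest in untreated replicate 1, and stroma 2 had 117 CPM of *Ednra* and 331 CPM of *Calcrl*. The glutamate receptor *Gria4* was higher in dilator muscle, at 230 CPM against 52.4 CPM.

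Of 19 eye transcription factors fitted, 2 were past the cut and higher in sphincter 2, *Mecom* and *Zic4*, and 1 higher in dilator muscle, *Eya2*, beside 4.86% and 4.5% of all genes. *Zic4* rested on 25 UMIs in sphincter 2 and was also an iris PE marker. *Mecom* overlapped between the types, at 18.3, 68.7 and 97.8 CPM against 26.2, 29.1 and 32.4 CPM. *Pax6*, the master regulator of eye development, was at 1319, 1557 and 1349 CPM against 1340, 1538 and 1639 CPM, with overlap (log2 fold change -0.12, SE 0.09), and *Otx1* also overlapped, at 36.6, 125 and 117 CPM against 61.1, 70.9 and 68.7 CPM.

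In single nuclei, *Adra1a* had a UMI in 148 of 352 sphincter 2 nuclei (42.0%, exact 95% interval 36.8% to 47.4%), in 68.5% of dilator nuclei and in 7.17% of sphincter 1 nuclei. A UMI of *Chrm3* was found in 63.1% of sphincter 2 nuclei (57.8% to 68.1%), 6.495% of dilator nuclei and 99.1% of sphincter 1 nuclei. Both transcripts were detected in 89 sphincter 2 nuclei (25.3%), against 4.93% of dilator and 6.99% of sphincter 1 nuclei. The share with both depends on the shares with each alone, and an excess over those was not tested. In stroma 1, taken as the background, 2.32% of nuclei had a UMI of *Adra1a* and 3.02% one of *Chrm3*. After each nucleus was thinned to 1000 UMIs, which left out 1 sphincter 2 and 26 dilator nuclei, the shares in sphincter 2 were 17.4%, 36.5% and 4.84% for *Adra1a*, *Chrm3* and both, and in dilator muscle 34.8%, 2.33% and 0.854%. The intervals treat the nuclei of the 3 libraries as one pool and cover counting error only. Before thinning, the shares in sphincter 2 of untreated replicates 1, 2 and 3 were 53.85%, 40.44% and 41.58% for *Adra1a*. For *Chrm3* they were 73.08%, 55.15% and 67.37%, so that for both genes the libraries spread beyond the interval.

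The sets gave the same view nucleus by nucleus. The median share of UMIs on the 41 dilator-restricted transcripts was 1.36%, 1.23% and 1.29% in sphincter 2 of the 3 libraries, 1.92%, 1.84% and 1.83% in dilator muscle and 0.181%, 0.161% and 0.135% in sphincter 1. On the 139 sphincter transcripts it was 1.46%, 1.25% and 1.39% in sphincter 2, 0.398%, 0.292% and 0.302% in dilator muscle and 5.68%, 4.96% and 5.15% in sphincter 1. Of the 352 sphincter 2 nuclei, 347 lay above the 90th percentile of dilator nuclei of their library for the sphincter transcripts, and 342 lay above that of sphincter 1 nuclei for the dilator-restricted transcripts. For the melanin genes 339 lay below the 10th percentile of dilator nuclei, while 217 lay within the range from the 10th to the 90th percentile of sphincter 1. Since the nuclei were clustered on these counts, the separation is a description.

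**Figure D5:**
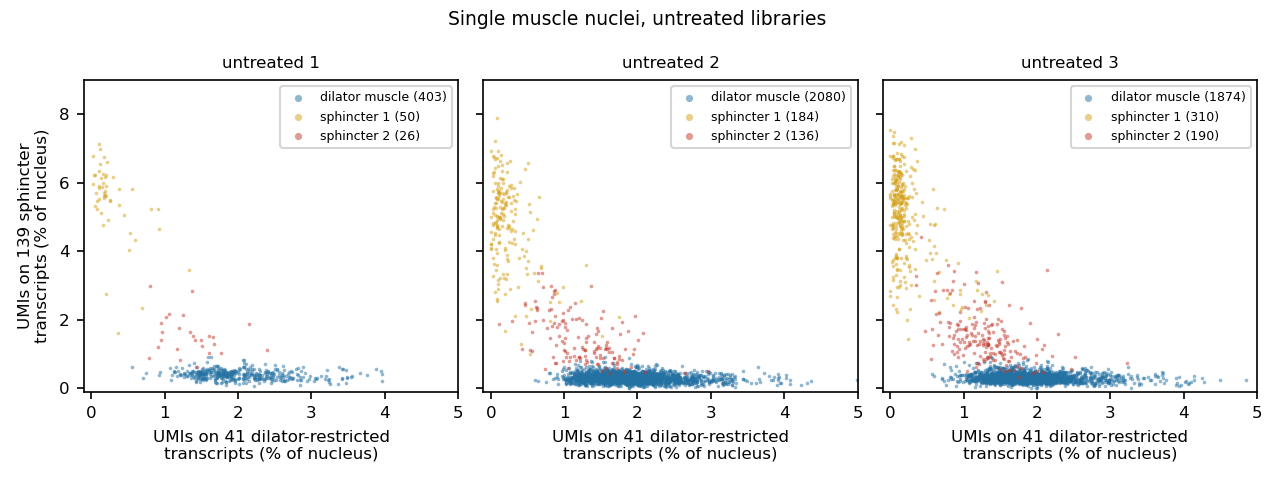
Share of the UMIs of each nucleus on the 41 dilator-restricted transcripts (horizontal axis, percent) and on the 139 sphincter transcripts (vertical axis, percent), in 1 panel per untreated library with the number of nuclei in brackets. Sphincter 2 nuclei lie between the other muscles on the vertical axis, with library medians of 1.25% to 1.46%, and reach toward both groups.

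The comparison was repeated in the 3 constricted libraries, which the choice of sphincter 2 against dilator muscle in untreated irises did not use, although the cell types rest on one clustering of all libraries. There 431 of 11090 genes (3.89%) were higher in sphincter 2 and 405 (3.65%) higher in dilator muscle. Of the 527 untreated genes on the sphincter 2 side, 464 could be fitted there, 453 had the same sign and 328 (70.7%) were past the cut again. Of the 488 on the dilator side, 478 could be fitted, 469 had the same sign and 282 (59%) were past the cut. The log2 fold changes there were -1.15 for *Adra1a*, 4.69 for *Chrm3*, 4.73 for *Myocd*, -3.37 for *Nos1* and -2.93 for *Tyr*. *Gabra5*, *Nos1* and *Cacng4* all stood at or below 10% of their dilator level there, and the median of the 41 dilator-restricted transcripts was 54.4%. For these, levels in the constricted dilator muscle had served to choose them. In the 2 dilated libraries, 523 of 12577 genes (4.16%) were higher in sphincter 2 and 541 (4.3%) higher in dilator muscle. There 465 of the 502 untreated sphincter 2 genes that could be fitted had the same sign and 296 (59.0%) were past the cut. On the dilator side 445 of 476 had the same sign and 222 (46.6%) were past the cut.

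Whether the difference itself changed between conditions was tested in joint fits with a term for each library. The sphincter 2 minus dilator difference was larger in constricted than in untreated libraries for 5 of 11675 genes (0.0428%) and smaller for 5 (0.0428%), at an adjusted p under 0.05. Between dilated and untreated libraries it was larger for 97 of 12183 genes (0.796%) and smaller for 190 (1.56%). These counts depended on single libraries. When any 1 library was left out, the constricted calls of both directions together numbered 4 to 13, with 4 without constricted replicate 1 and 4 without untreated replicate 3. The dilated calls numbered 132 to 315, with 132 without untreated replicate 3, 155 without untreated replicate 2, 150 without dilated replicate 1 and 168 without dilated replicate 2. The genes named here that were among them are given after the report.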

How the data were processed

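Per the submitters' processing notes and the study's methods, the authors aligned reads to an mm10 pre-mRNA index with Cell Ranger 3.1.0, so that intronic reads counted, and clustered the nuclei of all libraries with Seurat. The authors deposited raw UMI counts per gene and nucleus with a cell type for each nucleus, and both were used as deposited. For each library and type the UMI counts of its nuclei were added up and fitted with edgeR 4.0.16 (R 4.3.3), with filterByExpr, TMM factors and the library as a term, since both types of a pair came from one library. The fit was tested on simulated data. CPM are relative to the summed UMIs of that type and library, and no error other than the spread over libraries is included. Replicates are separate libraries of pooled irises. Doublets were called with Scrublet (scanpy 1.11.5) and kept, except in an alternative, and DESeq2 1.42.0 was another alternative. Intervals are exact Clopper-Pearson intervals at 95% and cover counting error only. Positions are from GENCODE vM21 on mm10, where 22462 of 22873 gene names had 1 entry, and promoters are from RefSeq.

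The comparison, its members and the gene lists were chosen with earlier results of these data known. Named genes were the muscle transcripts the study describes, the dilator-restricted transcripts with the highest dilator level in constricted libraries, the 10 largest and 10 smallest log2 fold changes, up to 4 members past the cut per list, further members needed for contrast and the 10 genes highest in sphincter 2. Other genes were named after their values had been seen. Some genes are not reported here.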

Additional observations from a re-analysis of the deposited data

Results flagged for a closer look

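For 3 of the 102 named genes that were fitted, the sphincter 2 minus dilator difference itself differed between constricted and untreated libraries, and for 21 it differed between dilated and untreated libraries (edgeR joint fit, adjusted p under 0.05 over all genes). Of all 11675 genes fitted with constriction it was larger for 0.0428% and smaller for 0.0428%. Of all 12183 fitted with dilation it was larger for 0.796% and smaller for 1.56%. Many of the named genes had been chosen by their untreated difference, so that they are no even sample of all genes. The effect of the drug and that of the light cannot be told apart. The untreated libraries are shared by both comparisons, and the dilated condition has only 2 libraries.

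With constriction the difference was smaller for *Mical2*, by -1.73 on the log2 scale, and for *Plcl2*, by -1.62, and larger for *Prkg1*, by 0.77. These genes had been named as past the cut in the untreated libraries, which are 1 side of this fit. That choice favours a smaller difference. Mean levels of *Mical2* in untreated and constricted libraries were 163 and 209 CPM in sphincter 2, and 6.43 and 25.0 CPM in dilator muscle. All 3 kept their sign when any 1 library was left out, and between 1 and 3 of them kept the call, the fewest without untreated replicate 2.

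With dilation the difference was smaller for several transcripts that stood far higher in sphincter 2 than in dilator muscle. Some of them, such as *Wif1*, *Dkk2* and *Alcam*, had been named for their large untreated difference. The same untreated libraries are 1 side of these fits, so that the choice itself favours a smaller difference. A lower level in sphincter 2 and a higher level in dilator muscle would each make it smaller, and which of them changed was not tested. The difference for *Wif1* changed by -2.11, from 3.02 in untreated to 0.91 in dilated libraries, that for *Dkk2* by -1.65, that for *Alcam* by -1.34 and that for *Lmo4* by -1.28. Changes in the same direction were -3.46 for *Calcrl*, -2.08 for the collagen *Col4a1*, -1.84 for *Pde3b*, -1.34 for *Sh3gl2*, -0.93 for *4933406I18Rik*, -0.64 for *Prkg1*, -0.62 for *Syt1* and -0.57 for *Negr1*. *Calcrl* changed sign, from 2.43 in untreated to -1.04 in dilated libraries, where it was higher in dilator muscle. Its untreated level in sphincter 2 rested on few UMIs. The muscle genes *Myh11*, *Myocd* and *Ppp1r12a* went the other way, by 0.94, 1.15 and 0.54, as did *Ednra* by 2.22, *Kcnma1* by 2.01 and *Hhip* by 0.86. Among the dilator-restricted transcripts, the difference for *AC159282.1* changed by 0.88 and that for *Unc13c* by 0.56, which took both from lower in sphincter 2 to 0.24 and 0.09 on the log2 scale. All 21 kept their sign when any 1 library was left out, and between 11 and 20 kept the call, the fewest without untreated replicate 3.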

How the results depend on the processing

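In the untreated comparison, 527 genes were higher in sphincter 2 and 488 in dilator muscle. Without a term for the library (no replicate block) the counts were 479 and 455, and without a filter on low counts 501 and 641. At the study's fold threshold of 0.6 on the log2 scale they were 834 and 841, and leaving out 1 untreated library gave 429 to 609 and 372 to 569. In the constricted libraries, where all 3 gave 431 and 405, leaving out 1 gave 315 to 427 and 243 to 363, the 243 without constricted replicate 3. The counts of transcripts depend on how they were chosen. The sets themselves change in size. At a fold of 8, sphincter 2 carried 7 of 19 dilator-restricted transcripts, with 10 reduced. At a minimum of 20 CPM it carried 29 of 62, with 30 reduced. With limits of 75% and 5% it carried 8 of the 41, with 33 reduced and 0 lacking. Those lacking numbered 1 to 2 when a library was left out, 1 without untreated replicate 1. A fold of 8 left 10 of 11 shared transcripts carried, and 8 of 82 sphincter transcripts carried and 38 reduced. A minimum of 20 CPM gave 61 of 200 sphincter transcripts lacking and 33 genes highest in sphincter 2, and a fold of 4 in place of 2 gave 4 of the latter. Thinning to 1000 UMIs lowered the shares of nuclei to 17.4%, 36.5% and 4.84% for *Adra1a*, *Chrm3* and both. Of the 102 named genes fitted, 81 were past the cut, and 74 were so under every alternative that could fit them. Log2 fold changes near 0 turned sign for *Ttn* (0.017 to 0.33 when a library was left out), *Ctnna3* (-0.023 without the block, -0.15 with dilator sums thinned, -0.27 to 0.37 when a library was left out), *Ptprz1* (-0.21 without untreated replicate 1, to 0.71) and *Plch1* (0.023 without the block, 0.044 without doublets, -0.17 to 0.11 when a library was left out). The cause was not tested. Alternatives that left out shared barcodes, a constricted library, or a library in the joint fits were chosen after seeing the data.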
